A study of Mus musculus with 2 samples.

Results

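The cells described here are CD8 T cells of mouse liver tumors with detected mRNA of Gzmk and Ccl5 and no detected mRNA of Pdcd1, and they are called Gzmk+ CD8 T cells below. Some of them may hold Pdcd1 mRNA that was not captured. They were chosen by their own measured counts of unique molecular identifiers (UMIs, each standing for 1 captured mRNA molecule). A cell was taken if it had at least 2 UMIs of Cd3d, Cd3e and Cd3g together, at least 2 of Cd8a and Cd8b1 together, none of Cd4, none of Pdcd1, at least 1 of Gzmk and at least 2 of Ccl5, and if fewer than 4 of 10 mitosis genes were detected in it. This rule found 1686 cells among 25814, of which 718 came from the lenvatinib library and 968 from the combo library.

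Both libraries were made by scRNA sequencing of sorted live CD45+ cells from tumors of a Trp53KO/MYCOE model of hepatocellular carcinoma that had become resistant to lenvatinib, an inhibitor of several receptor tyrosine kinases. Tumors were raised in male wild-type C57BL/6 J mice aged 6 to 8 weeks by hydrodynamic injection of plasmids for human MYC and for a guide RNA against Trp53 into the tail vein, so that the oncogene sat in transfected hepatocytes and the T cells were those of a wild-type host. All mice received lenvatinib at 30 mg/kg from day 12 after the plasmids for 25 days. The lenvatinib group then stayed on lenvatinib at 30 mg/kg, and the combo group received lenvatinib at 30 mg/kg with palbociclib, an inhibitor of CDK4 and CDK6, at 100 mg/kg. There was 1 library for each condition, so that treatment and library cannot be told apart and no difference between them could be tested. The files held 98107503 UMIs in 14509 barcodes under lenvatinib and 93583402 UMIs in 11989 barcodes under combo, and barcodes with over 6000 genes or over 25% mitochondrial UMIs were removed (308 and 376). There were 49 barcodes present in both libraries, 0 of them among Gzmk+ CD8 T cells. The number of mice behind each library is not given in the sources used here. Intervals below are exact 95% intervals and cover counting error only.

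Granzyme K is a serine protease of cytotoxic granules, and CD8 T cells that express it together with the chemokine Ccl5 are commonly found among effector memory cells in tumors and inflamed tissue. Effector memory cells have left the naive state, have low levels of the lymph node homing receptor Ccr7, and release granzymes, perforin and chemokines on contact with their antigen. Cells of this type that keep seeing antigen can raise the inhibitory receptor Pdcd1 and the transcription factor Tox.

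The gene Gzmk lies on chromosome 13 of mm10, from 113171608 to 113225908 on the minus strand, and Ccl5 on chromosome 11, from 83525778 to 83530518 on the minus strand. Gzmk was a sparse transcript in the cells chosen by it. Exactly 1 Gzmk UMI was found in 54.2% of the Gzmk+ CD8 T cells under lenvatinib and in 41.8% under combo, and at least 3 in 24.1% and 32.2%. The highest Gzmk count in a cell was 11 in both libraries. Ccl5 was abundant, with a median of 58 UMIs per cell under lenvatinib and 74 under combo and a highest count of 375 and 377. The limit on Ccl5 therefore decided few cells: 8 cells under lenvatinib and 3 under combo were just inside it with 2 UMIs, and 8 and 3 cells were just outside it with 1 UMI. At the limit on mitosis genes, 27 cells under lenvatinib and 6 under combo were just inside with 3 genes, and 9 and 0 cells were just outside with 4.

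**Figure D1:**
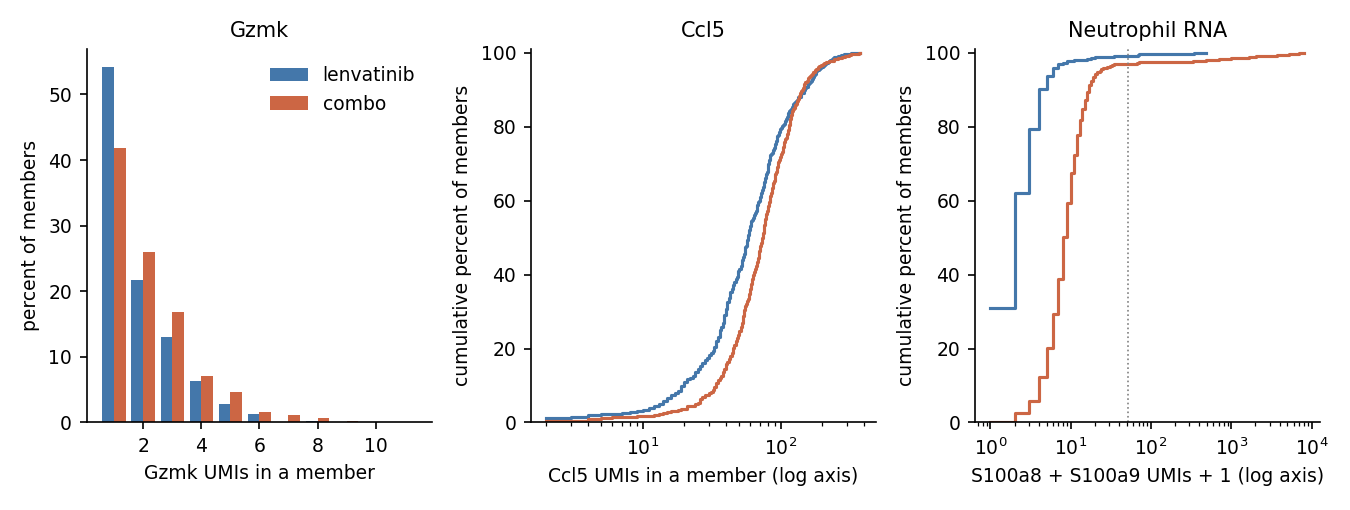
UMIs per Gzmk+ CD8 T cell in the lenvatinib (blue) and combo (orange) libraries. Left, percent of cells at each count of Gzmk UMIs; middle, cumulative percent of cells by Ccl5 UMIs on a log axis; right, cumulative percent by the sum of S100a8 and S100a9 UMIs plus 1 on a log axis, with a dotted line at 50 UMIs. The combo cells lie to the right in all 3 panels, with medians of 2 against 1 Gzmk UMIs, 74 against 58 Ccl5 UMIs and 7 against 1 UMIs of the neutrophil genes.

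RNA free in the droplets was measured in cells that should lack both genes. These cells were chosen without any UMI of Cd3d, Cd3e and Cd3g, which leaves out droplets with free RNA of those T cell genes. The shares below may therefore be too low. A Gzmk UMI was present in 1.01% of gated B cells under lenvatinib and 1.07% under combo, and in 1.44% and 2.23% of gated neutrophils. At least 2 Ccl5 UMIs were found in 41.2% and 30.1% of B cells and in 35.3% and 44.7% of neutrophils, so that the Ccl5 limit alone did not separate cells from background. The Gzmk and Ccl5 limits together were met by 0.719% and 1.63% of neutrophils and by 0.406% and 0.716% of B cells. The median depth of the B cells was 3365 UMIs under lenvatinib and 3485 under combo, against 5200.5 and 4997 in the Gzmk+ CD8 T cells. After each cell was thinned to 2000 UMIs, none of 461 and none of 534 B cells met both limits, and 3 counts of these totals, taken as the limit that a count of 0 allows, are 0.651% and 0.562%.

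The label of effector memory cells was checked on 12 genes against the gated CD8 T cells without Gzmk and with at most 1 Ccl5 UMI (Gzmk- Ccl5 low cells, 163 under lenvatinib and 124 under combo). Genes that are low in effector memory cells were at least 1.5-fold lower in the Gzmk+ CD8 T cells in both libraries, among them Ccr7 (0.154 of the level in the Gzmk- Ccl5 low cells under lenvatinib and 0.0810 under combo) and Lef1 (0.317 and 0.157). Il7r was lower too (0.563 and 0.373), but memory cells can keep this gene, so its fall does not speak for the label. Of the 8 genes that are raised in effector memory cells, 5 were at least 1.5-fold higher in both libraries. They were the T-box factor Eomes (2.72-fold under lenvatinib and 4.55-fold under combo), the granule protein gene Nkg7 (2.21-fold and 3.72-fold), Id2 (4.10-fold and 3.30-fold), the integrin gene Itgb1 (3.58-fold and 2.85-fold) and the chemokine receptor gene Cxcr3 (1.99-fold and 4.44-fold). The other 3 were mixed: Cd44 stood at 0.979 and 1.76 times, Il2rb at 1.30 and 1.90 times and Ly6c2 at 0.811 and 1.22 times the level of those cells. The comparison set was itself cut by Gzmk and Ccl5. The check therefore does not separate effector memory cells from other CD8 T cells that have left the naive state. Against gated CD8 T cells with Ccl5 but neither Gzmk nor Pdcd1, 3 of the 12 genes were higher in both libraries and 4 lower. Against those with Gzmk, Ccl5 and Pdcd1, 3 were higher, Ccr7 and Lef1 among them, and none was lower. Genes of CD4 and regulatory T cells other than Ctla4 were rare, and Foxp3 had 8 UMIs in all Gzmk+ CD8 T cells under lenvatinib and 4 under combo.

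Gzmk+ CD8 T cells took a larger share of the CD8 T cells under combo. Of 3327 gated CD8 T cells with fewer than 4 mitosis genes in the lenvatinib library, 718 were of this kind, which is 21.6% (20.2 to 23). In the combo library the count was 968 of 2731 (35.4%, 33.6 to 37.3), and the ratio of the shares was 1.64. The gated CD8 T cells themselves were 23.4% and 23.5% of all kept cells. At equal depth, with each cell thinned to 2000 UMIs, the shares were 19.5% and 31.1%. The ratio was 2.08 when at least 2 Gzmk UMIs were required, with 9.89% under lenvatinib and 20.6% under combo. Cells with Gzmk, Ccl5 and Pdcd1 mRNA (Pdcd1+ Gzmk+ cells) were also a larger share under combo, at 14.7% against 7.27%. The share of cells with Ccl5 but neither Gzmk nor Pdcd1 (Gzmk- Ccl5+ cells) was smaller, at 39.3% under combo against 61.9%, and that of Gzmk- Ccl5 low cells was 4.54% against 4.90%. The shares are of sorted and captured cells and say nothing of the number of cells in a tumor.

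**Figure D2:**
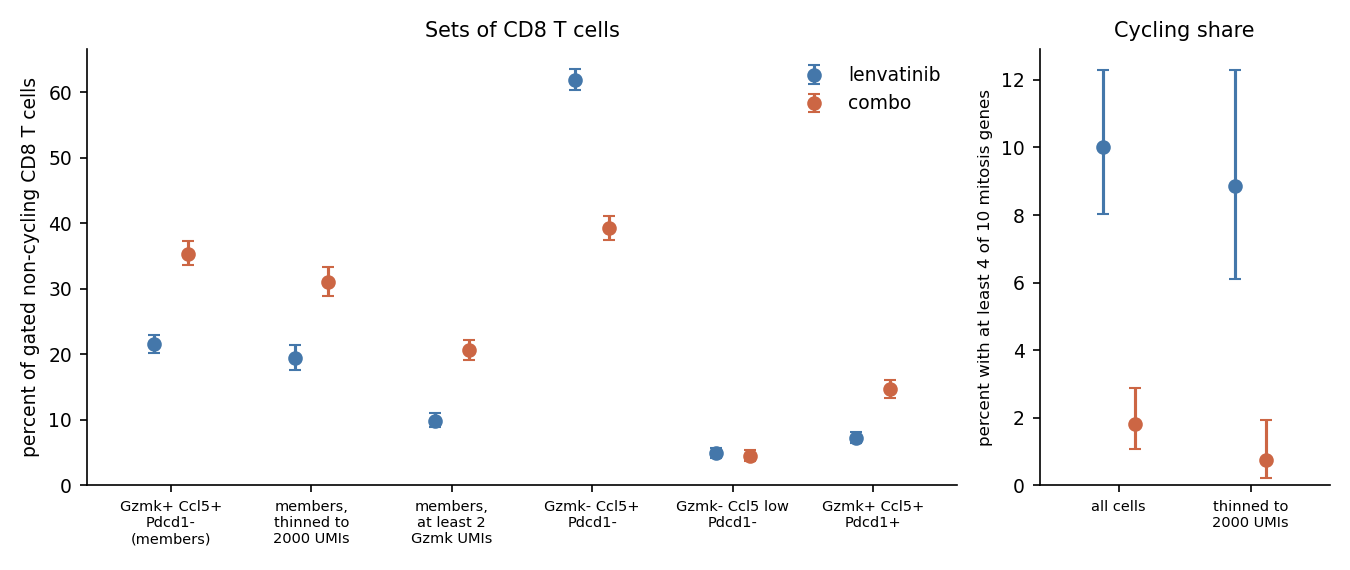
Left, percent of gated non-cycling CD8 T cells that fell into each set, in the lenvatinib (blue) and combo (orange) libraries, with exact 95% intervals for counting error; right, percent of Gzmk+ Ccl5+ Pdcd1- CD8 T cells with at least 4 of 10 mitosis genes. The Gzmk+ CD8 T cells went from 21.6% to 35.4% and the cycling share from 10.0% to 1.83%.

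Cells of the same kind in division were rarer under combo. When the limit on mitosis genes was lifted, 80 of 798 Gzmk+ Ccl5+ Pdcd1- CD8 T cells (10.0%, 8.03 to 12.3) had at least 4 of the 10 mitosis genes under lenvatinib, and 18 of 986 (1.83%, 1.09 to 2.87) under combo. Among cells thinned to 2000 UMIs these shares were 8.86% and 0.762%. The rule kept cells with up to 3 mitosis genes, and 56.3% of the Gzmk+ CD8 T cells under lenvatinib and 75.7% under combo had none.

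Genes of DNA replication were lower in the remaining Gzmk+ CD8 T cells as well. Levels are given as CPM, the UMIs of a gene in 1000000 UMIs summed over the cells of a set in a library, and a gene was counted as higher or lower in a comparison where the ratio of CPM reached 1.5 either way, among genes with a mean of at least 20 CPM. Of 5413 genes compared between combo and lenvatinib within the Gzmk+ CD8 T cells, 2.49% were higher and 14.3% were lower by this rule. Against that background, 8 of 13 replication genes compared were lower and none was higher; 4 were lower with the median of all genes set to 0. The sliding clamp gene Pcna was at 259 CPM under lenvatinib and 162 under combo, a ratio of 0.624 (0.572 to 0.680), and the helicase subunit gene Mcm6 at 98.8 and 59.6 CPM, a ratio of 0.603. Stmn1, which encodes a regulator of microtubules and is high in dividing cells, was at 80.0 and 43.4 CPM. In the Gzmk- Ccl5+ cells the ratios of combo to lenvatinib were 0.756 for Pcna, 0.702 for Mcm6 and 0.826 for Stmn1. Mki67 and Top2a, the mitosis genes above the limit of 20 CPM, were at 0.358 and 0.481 of their level under lenvatinib. They belong to the rule, which bounds them.

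Among the genes of the pathway that palbociclib acts on, 1 of 11 compared was higher and 2 were lower; 1 was lower without the cells marked by neutrophil RNA (described below), and none with the median of all genes set to 0. Cdkn1a, which encodes the inhibitor p21, was at 40.7 CPM under lenvatinib and 61.6 under combo, a ratio of 1.51 (1.26 to 1.81), and its ratio was 2.02 in the Gzmk- Ccl5+ cells. Rbl2, which encodes a relative of the retinoblastoma protein, was at 121 and 72.7 CPM (ratio 0.600), and Rbl1 at 30.1 and 20.1 CPM (ratio 0.667, 0.517 to 0.858). The drug targets did not pass 1.5-fold. The ratio of Cdk4 was 1.11 (0.960 to 1.28), and Cdk6 was lower under combo, with a ratio of 0.735 (0.664 to 0.813). Of the D-type cyclins, Ccnd2 had a ratio of 0.978 and Ccnd3 a ratio of 1.30. The genes of the activating E2F factors, E2f1, E2f2 and E2f3, were below the limit, with 5.96 to 8.34 CPM under combo. Each was lower under combo, with ratios of 0.529, 0.634 and 0.642 when the highest cell of each library was left out. These genes had only 35 to 49 UMIs under combo.

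The makeup of the mRNA in Gzmk+ CD8 T cells shifted between the libraries, and this touches every ratio. Ribosomal protein genes held 25.2% of UMIs under lenvatinib and 29.1% under combo, and the median log2 ratio of all genes compared was -0.18. With that median set to 0, 336 genes were higher and 292 lower, in place of 135 and 776. With mitochondrial, ribosomal protein and hemoglobin genes taken out of the totals, 268 were higher and 712 lower. The list medians below are therefore to be read against -0.18.

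Neutrophil mRNA also differed. At least 1 UMI of S100a8 or S100a9 was found in 69.1% of Gzmk+ CD8 T cells under lenvatinib and in 99.8% under combo. Gated neutrophils were 2.96 times as large a share of all cells under combo. Of 7 neutrophil genes compared, 7 were higher under combo, with a summed level of 566 CPM under lenvatinib and 13971 CPM under combo over the 8 genes of the list (319.7 and 1817 CPM without the marked cells described next), S100a8 with 274 CPM under lenvatinib and 6447 under combo, and the 10 genes with the largest ratios in the Gzmk+ CD8 T cells (Stfa1, Cstdc5, Mmp8, Wfdc21, Retnlg, Cd177, Chil3, Lcn2, Ngp and S100a9) are all known from neutrophils. Cells with at least 50 UMIs of S100a8 and S100a9 numbered 6 under lenvatinib and 28 under combo, and they held 49.0% and 88.9% of these UMIs. Without them, and without genes over 2 times as high in gated neutrophils, B cells or macrophages (cells with at least 20 UMIs of C1q genes) as in the Gzmk+ CD8 T cells, 1.13% of 4255 genes were higher and 13.4% lower. Of the 135 genes higher over all cells, 104 are such genes of other cells. Markers of other cell types had smaller sums of captured UMIs. The 8 monocyte and macrophage markers summed to 127 CPM under lenvatinib and 867 under combo (525 without the marked cells), and 1 cell held 73.1% of the Apoe UMIs under combo. The 8 B cell markers summed to 149 and 167 CPM, 7 dendritic cell markers to 25.8 and 15.3 CPM, 6 hepatocyte markers to 11.7 and 6.30 CPM, 5 erythroid markers to 7.58 and 5.79 CPM and 8 gamma-delta T cell markers to 152 and 115 CPM. The part of this RNA in other differences was not tested.

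**Figure D3:**
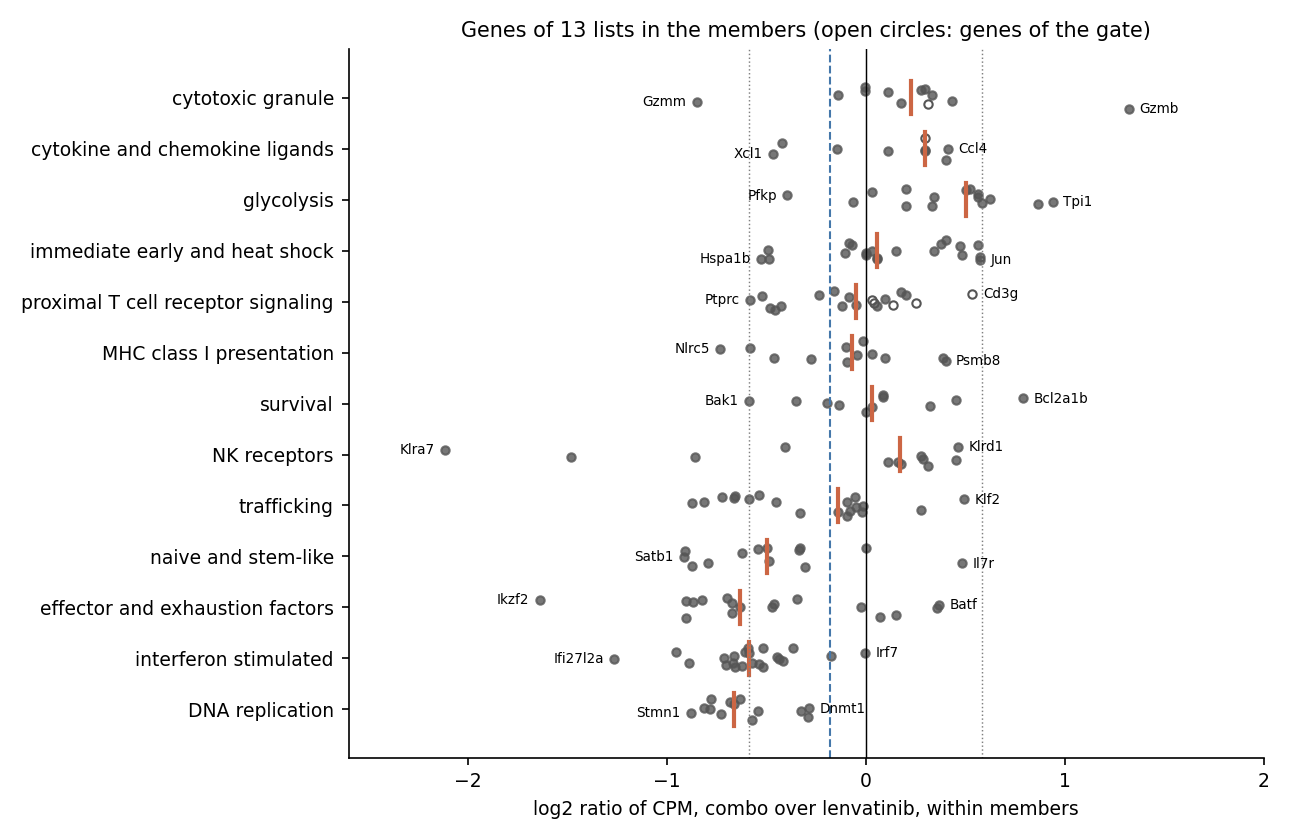
Log2 ratio of CPM, combo over lenvatinib, within Gzmk+ CD8 T cells, for the genes of 13 lists that passed the limit of 20 CPM. Each point is a gene (open circles are genes that the choice of cells used), orange bars are list medians, dotted lines mark a ratio of 1.5 either way and the dashed blue line the median of all genes at -0.18; glycolysis has the highest list median at 0.50 and DNA replication the lowest at -0.66.

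Of the 12 cytotoxic genes compared, Gzmb differed most. Gzmc, under the limit of 20 CPM, had 35 UMIs under lenvatinib and 117 under combo, and 1 cell held 29.1% of the latter. Its ratio was 2.11 with the highest cell of each library left out. Gzmb, which encodes the granzyme that triggers apoptosis in target cells, lies on chromosome 14 from 56258838 to 56262260 on the minus strand, and was at 568 CPM (547 to 591) in the Gzmk+ CD8 T cells under lenvatinib and 1419 CPM (1389 to 1449.9) under combo. The ratio was 2.50 (2.39 to 2.61), and 2.51 without the cells marked by neutrophil RNA. It was found in more cells too: at 2000 UMIs per cell, 46.7% (42.9 to 50.4) of Gzmk+ CD8 T cells had a Gzmb UMI under lenvatinib and 64.0% (60.9 to 67.0) under combo. The ratio was alike in other CD8 T cells, at 2.65 in the Gzmk- Ccl5+ cells and 2.44 in the Pdcd1+ Gzmk+ cells. In B cells, which should lack Gzmb, it was 0.418.

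The rest of the cytotoxic list moved less, with Gzmb the 1 gene of 12 compared that was higher and Gzmm the 1 that was lower. Gzma, which encodes a tryptase-like granzyme, was at 731 CPM under lenvatinib and 896 under combo (ratio 1.23, 1.17 to 1.28), whereas in the Gzmk- Ccl5+ cells its ratio was 0.862. The share of Gzmk+ CD8 T cells with a Gzma UMI was not higher under combo: it was 32.3% and 30.3% at 2000 UMIs per cell, 41.5% (37.2 to 45.9) and 30.7% (27.2 to 34.3) at 4000 UMIs among the cells that deep, and 48.3% and 39.5% without thinning. Cells with both Gzma and Gzmb made up 19.7% and 25.4% at 2000 UMIs, but 27.0% and 26.8% at 4000 UMIs and 36.6% and 36.4% without thinning. Gzmm, which encodes a granzyme of innate-like lymphocytes, was at 48.1 and 26.7 CPM, a ratio of 0.555 (0.450 to 0.684). Prf1, which encodes the pore-forming protein perforin, was at 113 CPM in both libraries (ratio 0.998, 0.888 to 1.12). Nkg7 was at 1771 and 1994 CPM, and the death ligand gene Fasl at 130.2 and 157 CPM. The list median, with Gzmk of the choice counted, was 0.22, and 2 genes were higher with the median of all genes at 0.

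Windows from 250 bases before to 50 after the start are shown from RefSeq (GRCm38.p6) for the granzyme genes that the comparison turns on. The promoter of the gene used for the choice can thus be read beside that of Gzmb. RefSeq and the gene coordinates above do not use the same starts: the Gzmk window lies inside the gene as given above, and the Gzmb window just outside. All windows are on the minus strand, Gzmk at chr13:113180916-113181215, Gzmb at chr14:56262285-56262584 and Gzma at chr13:113100932-113101231, and are written 5′ to 3′ along the gene. Capitals mark the letters GGTGTGA, the core that T-box factors such as Eomes and Tbx21 bind, or TGTGGT, the core that RUNX factors bind, on either strand.
Gzmk: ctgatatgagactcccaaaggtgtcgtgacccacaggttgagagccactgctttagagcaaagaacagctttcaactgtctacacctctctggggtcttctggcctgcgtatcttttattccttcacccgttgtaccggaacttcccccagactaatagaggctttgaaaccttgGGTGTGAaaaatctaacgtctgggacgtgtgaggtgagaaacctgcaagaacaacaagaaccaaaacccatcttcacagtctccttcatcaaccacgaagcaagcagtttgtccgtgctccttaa
Gzmb: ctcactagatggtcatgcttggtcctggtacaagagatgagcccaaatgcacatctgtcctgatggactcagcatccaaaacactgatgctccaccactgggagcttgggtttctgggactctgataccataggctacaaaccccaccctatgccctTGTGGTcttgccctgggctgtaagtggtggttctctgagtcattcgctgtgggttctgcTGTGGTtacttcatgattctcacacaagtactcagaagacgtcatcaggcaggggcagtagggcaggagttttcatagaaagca
Gzma: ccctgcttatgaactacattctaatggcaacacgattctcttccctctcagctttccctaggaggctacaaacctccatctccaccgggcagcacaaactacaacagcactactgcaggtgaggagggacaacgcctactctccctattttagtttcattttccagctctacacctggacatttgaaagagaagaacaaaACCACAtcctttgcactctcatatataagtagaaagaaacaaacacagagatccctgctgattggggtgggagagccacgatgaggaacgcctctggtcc

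The Gzmk window held 1 match to the T-box letters, starting at -75 from the RefSeq start, and 0 matches to the RUNX letters. The Gzmb window held 2 matches to the RUNX letters, at -93 and -34, and the Gzma window held 1 on the opposite strand, at -50. Of 32817 such windows in the table, 3.98% held the T-box letters, 16.8% held the RUNX letters and 0.871% held both. The 2 sets of letters can overlap, though they did not here. A match describes the letters and is not a measured binding site. Ccl5 had no entry in the table.

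No chemokine or cytokine gene of 9 compared passed 1.5-fold, and the list median was 0.29. Ccl5, which the choice of cells used, was among these 9, so the list median includes a gene that the choice bounds. The ratio of Ccl5 was 1.23 when the highest cell of each library was left out. With the median of all genes at 0, 1 gene of the list was higher. Among the chemokine genes, Ccl3 was at 215 CPM under lenvatinib and 284 under combo (ratio 1.32, 1.22 to 1.43) and Ccl4 at 943 and 1254 CPM (ratio 1.33, 1.28 to 1.38), against 1.09 and 1.05 in the Gzmk- Ccl5+ cells. Ifng, which encodes interferon gamma, was at 276 and 340.0 CPM (ratio 1.23). Xcl1, which encodes a ligand for a receptor of cross-presenting dendritic cells, was at 386 and 279 CPM (ratio 0.723).

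Many transcription factors of effector and exhausted cells were lower. Of 17 compared, 9 were lower and none was higher, with a list median of -0.63; with the median of all genes set to 0, 5 were lower, and without the marked cells 7. Tox, a factor of exhausted T cells, was at 259 CPM (244 to 274) under lenvatinib and 142 (132 to 152) under combo, a ratio of 0.548, and 35.2% and 25.6% of cells had a Tox UMI at equal depth. Eomes was at 245 and 151 CPM (ratio 0.616), and Tbx21, the T-box factor of effector differentiation, at 76.9 and 41.2 CPM (ratio 0.535). Maf was at 132 and 70.6 CPM (ratio 0.535). Within this list the smallest ratio was that of Ikzf2, which encodes the zinc finger factor Helios, at 152 CPM under lenvatinib and 48.7 CPM under combo (ratio 0.321, 0.279 to 0.369), with a UMI in 15.6% (13 to 18.5) and 7.08% (5.54 to 8.88) of cells at equal depth. The same ratio was 0.727 in the Gzmk- Ccl5+ cells and 0.356 in the Pdcd1+ Gzmk+ cells. Not all factors were lower: Id2 was at 674 and 662 CPM, Prdm1, which encodes Blimp-1, at 50.5 and 53.3 CPM, and Zeb2 and Batf had ratios of 1.28 and 1.29.

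Genes of naive and stem-like cells followed the same way, with 5 of 13 compared lower, none higher and a median of -0.50; 4 were lower and 1 higher with the median of all genes at 0, and 4 lower without the marked cells. Tcf7, which encodes the factor TCF1 that keeps T cells able to renew, was at 192 CPM under lenvatinib and 111 under combo (ratio 0.578, 0.522 to 0.641), with a UMI in 24.8% and 15.2% of cells at equal depth. Satb1 was at 227 and 120.5 CPM (ratio 0.530) and Slamf6 at 38.4 and 20.4 CPM (ratio 0.532). Il7r, which encodes the receptor chain for interleukin 7, went the other way at 130.5 and 183 CPM (ratio 1.40, 1.27 to 1.55), and its ratio was 1.72 in the Gzmk- Ccl5+ cells and 2.55 in the Pdcd1+ Gzmk+ cells. At equal depth, however, 15.2% and 16.9% of Gzmk+ CD8 T cells had an Il7r UMI, with intervals that overlap. Cells with both Tox and Tcf7 were 5.67% (4.08 to 7.65) and 2.81% (1.86 to 4.06) at equal depth.

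The inhibitory receptors that the choice of cells did not use were near equal, with 1 of 8 compared lower and a median of 0.01; without the marked cells 2 were lower, and with the median of all genes at 0, 1 was lower and 1 higher. Ctla4 was at 149.7 and 179 CPM (ratio 1.19), Lag3 at 36.0 and 35.2 CPM (ratio 0.979, 0.795 to 1.21), Havcr2 at 23.8 and 16.5 CPM (ratio 0.692), and the ectonucleotidase gene Entpd1 at 38.8 and 40.2 CPM (ratio 1.04). The lower gene was Nt5e, another ectonucleotidase gene.

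Receptors shared with natural killer cells did not move together. Klrd1, which encodes CD94, was at 264 CPM under lenvatinib and 363 CPM under combo (ratio 1.38, 1.28 to 1.48), with a UMI in 32.9% and 44.8% of cells. Of its NKG2 partners and relatives, Klrc1 was at 126 and 143 CPM, Klrk1 at 193 and 209 CPM and Klrc2 at 81.5 and 61.4 CPM. In the Ly49 family, Klra7 was at 64.1 and 14.8 CPM (ratio 0.231, 0.180 to 0.294), in 70 cells under lenvatinib and 30 under combo, and Klra1, Klra3, Klra6 and Klra8, which were under the limit of 20 CPM, had ratios of 0.290 to 0.438. Klra9 did not follow them, with a ratio of 1.12 (0.876 to 1.43). Ncr1, which encodes the activating receptor NKp46, was at 39.4 and 14.1 CPM (ratio 0.358), and Klrb1c, which encodes NK1.1, at 48.1 and 26.5 CPM (ratio 0.552). Of 12 receptors compared 3 were lower and none was higher, or 3 and 2 with the median of all genes at 0. Klra7 and other Ly49 genes are near-identical copies, and how the authors' counting split reads among them was not tested.

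Among the 10 genes with the smallest ratios were Klra7, Car2, Ikzf2, Ncr1, Itgax, Spry2, Gse1, Zswim8, Gm26917 and Jchain. Jchain, an immunoglobulin component of plasma cells, owed its place to 1 cell: it was at 516 CPM under lenvatinib and 80.2 under combo, and 1 cell held 82.1% of its UMIs under lenvatinib, without which it was at 93.2 CPM and, with the highest cell under combo left out too, the ratio was 0.626. Klra7 kept a ratio of 0.199, Ikzf2 of 0.308 and Gzmb of 2.47 when the highest cell of each library was left out. Over all genes, 18 of the 135 higher and 4 of the 776 lower had more than 25% of their UMIs of a library in 1 cell.

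Trafficking genes were lower in part, with 6 of 19 compared lower, none higher and a median of -0.14; 2 were lower and 1 higher with the median of all genes at 0. The integrin genes Itga4 (576 and 328 CPM, ratio 0.570), Itgal (387 and 245 CPM, ratio 0.633) and Itgb1 (346 and 219 CPM, ratio 0.632) were among the lower. S1pr1, which encodes the receptor for egress from tissue, was at 80.8 and 49.0 CPM (ratio 0.606), while Klf2, which encodes a factor that acts on S1pr1, was at 565 and 794 CPM (ratio 1.41, 1.34 to 1.48). Of the chemokine receptors, Ccr2 was at 118 and 78.3 CPM (ratio 0.665), Cxcr6, a receptor of tissue-resident cells, at 203 and 149 CPM (ratio 0.732), and Cxcr3 at 86.9 and 105 CPM (ratio 1.21).

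Interferon-stimulated genes were lower under combo, 12 of 22 compared with none higher and a median of -0.59; 3 were lower with the median of all genes at 0, and 10 without the marked cells. Ifi27l2a was at 796 CPM under lenvatinib and 331 under combo (ratio 0.416, 0.394 to 0.440), Isg15 at 127 and 80.3 CPM (ratio 0.634) and Ifit1 at 58.3 and 30.1 CPM (ratio 0.517). The gap was not limited to these cells: in the Gzmk- Ccl5+ cells the ratios were 0.441 for Ifi27l2a and 0.627 for Isg15, and in B cells 0.778 and 0.553. Irf7 had a ratio of 0.997 in the Gzmk+ CD8 T cells.

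Glycolysis had the highest median of the 13 lists plotted, 0.50, with 3 of 15 genes compared higher and none lower; 8 were higher with the median of all genes at 0. Tpi1 was at 99.9 CPM under lenvatinib and 192 under combo (ratio 1.92, 1.72 to 2.14), Aldoa at 332 and 606 CPM (ratio 1.82, 1.72 to 1.94), Pfkl at 43.6 and 66.9 CPM (ratio 1.54) and Ldha at 241 and 356 CPM (ratio 1.48). Leaving out the cells marked by neutrophil RNA gave 1.95 for Tpi1 and 1.82 for Aldoa. In the Gzmk- Ccl5+ cells the ratios were 1.54 and 1.66, and in B cells 1.04 and 1.31. The glucose transporter gene Slc2a1 was at 32.9 and 37.9 CPM (ratio 1.15, 0.933 to 1.43).

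The remaining lists held few genes past 1.5-fold. No gene of 19 for T cell receptor signaling and of 20 immediate early and heat shock genes passed it, although Jun (293 and 438 CPM) and Jund (1225 and 1824 CPM) both had a ratio of 1.49, and Jund one of 1.60 in B cells. These counts of 0 did not hold in other settings: without the marked cells 3 immediate early and heat shock genes were higher and 1 lower, and with the median of all genes at 0, 5 were higher, while 1 T cell receptor signaling gene was higher in each. The largest ratio among the T cell receptor signaling genes was that of Cd3g, which the choice of cells used. It was 1.45 with the highest cell of each library left out. Of 12 genes for presentation on MHC class I, 1 was lower (2 without the marked cells, none with the median of all genes at 0), the transactivator gene Nlrc5 (120.1 and 72.3 CPM, ratio 0.602). Of 11 survival genes, Bcl2a1b, a relative of Bcl2 that protects lymphocytes from apoptosis, was higher at 185 and 321 CPM (ratio 1.73, 1.60 to 1.88) and Bak1 lower; 2 were higher and none lower with the median of all genes at 0. In a list of cytokine receptors and their signaling, not all of the common gamma chain family, 3 of 14 were lower, or 2 without the marked cells and 2 with the median of all genes at 0. Il2rb, which encodes the beta chain of the receptor for interleukins 2 and 15, was at 574 and 321 CPM (ratio 0.559, 0.527 to 0.593). The interleukin 18 receptor genes Il18r1 and Il18rap, which are outside that family, had ratios of 0.666 and 0.583. Of 16 activation genes, 2 were lower, Il2rb and Ly6c2, and 1 with the median of all genes at 0.

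The Gzmk+ CD8 T cells were next set beside the 3 other sets of CD8 T cells within each library, and a gene was counted only where it passed 1.5-fold the same way in both. The sets were cut from the same cells by Gzmk, Ccl5 and Pdcd1, so these values describe them. Against the Gzmk- Ccl5+ cells, 2.97% of 5322 genes were higher and 1.30% lower, that is 158 and 69; with mitochondrial, ribosomal protein and hemoglobin genes out of the totals, it was 115 and 154. Lag3 led the higher genes, at 5.50 times the level of the Gzmk- Ccl5+ cells under lenvatinib and 3.60 times under combo, followed by Gzmb (3.09 and 2.91 times), Maf (3.99 and 2.84), Prdm1 (3.17 and 2.70), Entpd1 (3.32 and 2.69), Gzma (2.64 and 3.76), Il10ra (2.51 and 2.43) and Ccl3 (2.39 and 2.88). Of 15 genes of naive and stem-like cells compared, 10 were lower and none higher, with Dapl1 at 0.250 and 0.123, Ccr7 at 0.264 and 0.197 and Satb1 at 0.342 and 0.345 times the level of the Gzmk- Ccl5+ cells. Of 17 effector and exhaustion factors 8 were higher and none lower, among them Tox (3.14 and 2.32 times).

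In the cytotoxic list, Gzma, Gzmb, Prf1, Nkg7 and Fasl were higher than in the Gzmk- Ccl5+ cells in both libraries, beside Gzmk, which the choice fixed. Among trafficking genes, Cxcr6 (2.49 and 2.26 times), Ccr2, Itga1 and Itga4 were higher, and Ccr7 was lower. NK receptors stayed nearer to 1, with Klrd1 at 0.911 and 1.0 times and Klrc1 at 1.16 and 1.19 times the level in the Gzmk- Ccl5+ cells. The depth of the cells differed, with a median of 7849 UMIs per Gzmk- Ccl5+ cell under lenvatinib and 7057 under combo.

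Against the Gzmk- Ccl5 low cells, 8.48% of 5270 genes were higher and 2.20% lower, that is 447 and 116, and 313 and 338 with mitochondrial, ribosomal protein and hemoglobin genes out of the totals. Gzma (17.4 times under lenvatinib and 68.9 times under combo), Gzmb (12.5 and 37.5 times), Itga1, the collagen receptor subunit of tissue-resident T cells (9.83 and 73.3 times), Serpina3g (7.72 and 7.54 times) and the inflammatory caspase gene Casp1 (24.1 and 17.9 times) led the higher genes. Dapl1 (0.0951 and 0.0317), Igfbp4 (0.0910 and 0.0216), Ccr7 and Myb (0.240 and 0.116) were among the lowest, and 10 of 15 naive and stem-like genes were lower. Of 10 NK receptors compared 10 were higher. So were 4 of 7 neutrophil markers and both monocyte and macrophage markers compared, and Mmp8, a gene of neutrophils, was among the 8 with the largest ratios; their part in the other differences was not tested. With 163 and 124 cells, this set is small, and single genes in it rest on few UMIs.

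Against the Pdcd1+ Gzmk+ cells fewer genes passed than against the other sets: 0.490% of 5507 genes were higher and 0.581% lower, that is 27 and 32. Lower in the Gzmk+ CD8 T cells were Havcr2 (0.311 times the level of the Pdcd1+ Gzmk+ cells under lenvatinib and 0.457 times under combo), which encodes TIM-3, Lag3 (0.476 and 0.506), Ctla4 (0.502 and 0.546), Maf (0.394 and 0.467), Adgrg1 (0.317 and 0.466) and Tox (0.525 and 0.590). Of 9 inhibitory receptors compared 5 were lower, Pdcd1 among them by the choice, and none was higher. Higher were Ccr7 (4.03 and 2.94 times), Tcf7 (1.85 and 1.83), Satb1 (2.14 and 2.38), Lef1 (1.74 and 2.22), Gzmm (4.14 and 4.68) and Ly6c2 (3.01 and 1.84). Gzmb (0.928 and 0.949) and Gzma (1.22 and 0.917) were near equal. In the list of naive and stem-like genes, 4 of 12 compared were higher than in the Pdcd1+ Gzmk+ cells, whereas 10 of 15 were lower than in the Gzmk- Ccl5+ cells.

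**Figure D4:**
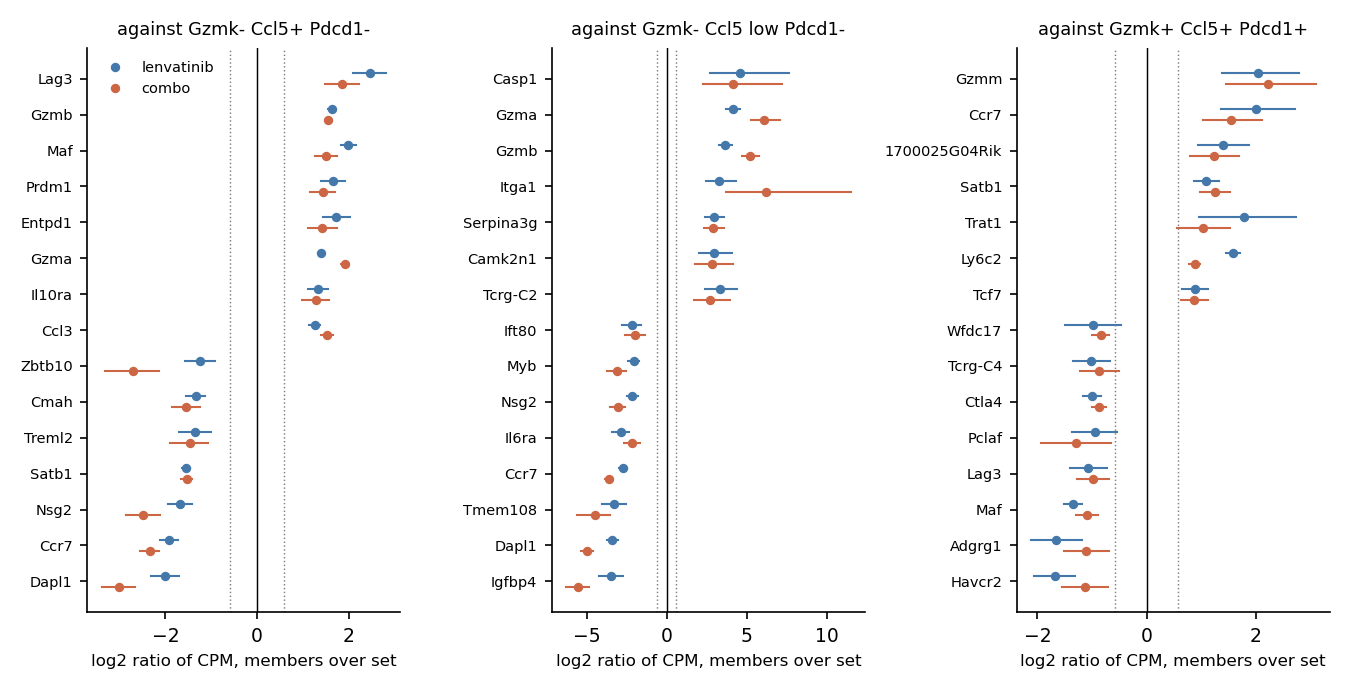
Log2 ratio of CPM between Gzmk+ CD8 T cells and each of the other sets of CD8 T cells, for the 8 genes with the largest and the 8 with the smallest ratio in both libraries (Cstdc5 and Mmp8, genes of neutrophils, and genes not reported here are not drawn). Points are ratios in the lenvatinib (blue) and combo (orange) libraries, lines are 95% intervals for counting error and dotted lines mark a ratio of 1.5 either way; Lag3 was 5.50 and 3.60 times as high as in Gzmk- Ccl5+ cells and 0.476 and 0.506 times as high as in Pdcd1+ Gzmk+ cells.

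Use of T cell receptor beta variable genes differed between the libraries in these cells. A beta variable gene with more UMIs than any other was found in 147 Gzmk+ CD8 T cells under lenvatinib (20.5%) and in 200 under combo (20.7%). Trbv3 led in 17 of the 147 (11.6%, 6.88 to 17.9) and in 61 of the 200 (30.5%, 24.2 to 37.4). In the Gzmk- Ccl5+ cells Trbv3 led in 9.89% (6.98 to 13.5) and 15.8% (11.1 to 21.5). In the Pdcd1+ Gzmk+ cells it led in 3.33% (2 of 60 cells, 0.406 to 11.5) and 14.9% (8.56 to 23.3). Its share was thus higher under combo in all 3 sets, but outside the Gzmk+ CD8 T cells the intervals of the libraries overlap. Trbv12-2 was the most frequent in Gzmk+ CD8 T cells under lenvatinib, at 17.7%, and came after Trbv3 under combo, at 15%. Under combo the 61 cells led by Trbv3 had 2398 CPM of Gzmb and 1780.0 CPM of Gzma, against 1154 and 786 CPM in the 139 cells led by another gene, and a Gzmb UMI was found in 90.2% (79.8 to 96.3) and 77.7% (69.9 to 84.3). Il7r was at 82.0 CPM against 295 CPM. Under lenvatinib only 17 cells were led by Trbv3, with 1619 CPM of Gzmb against 638 in the other 130. A Gzmb UMI was found there in 64.7% and 64.6% of cells, and Il7r was at 223 CPM, from 2 cells, against 119.6 CPM, the opposite of its order under combo. Full receptor sequences were not measured, so that cells with the same beta variable gene need not be of the same clone.

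**Figure D5:**
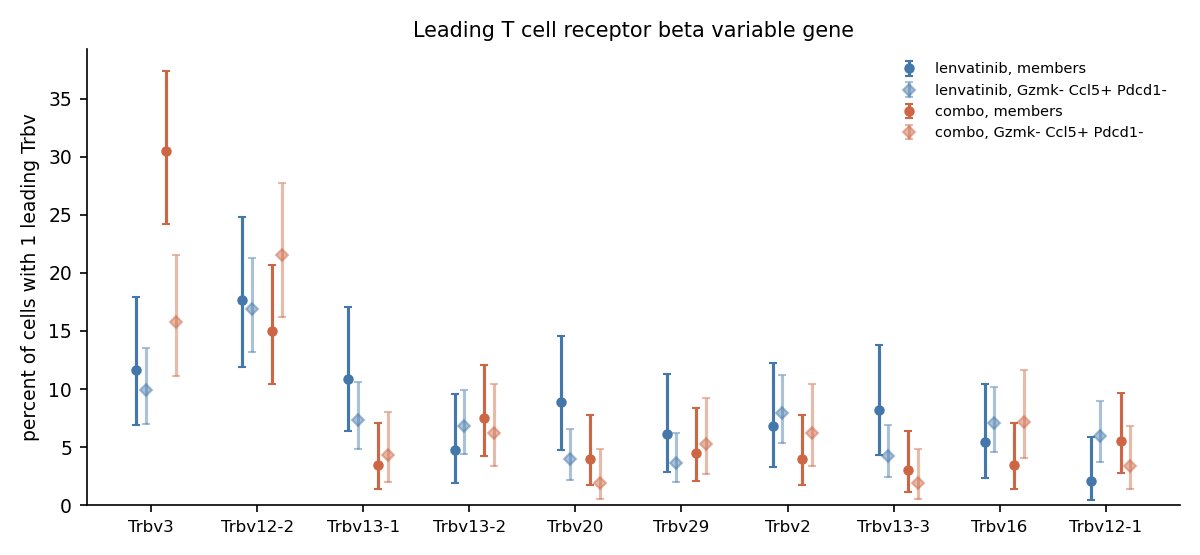
Percent of cells led by each of the 10 most frequent T cell receptor beta variable genes, among cells with 1 leading gene, for Gzmk+ CD8 T cells (circles) and Gzmk- Ccl5+ cells (pale diamonds) in the lenvatinib (blue) and combo (orange) libraries. Bars are exact 95% intervals for counting error; Trbv3 in Gzmk+ CD8 T cells of the combo library stands at 30.5%, against 11.6% under lenvatinib.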

How the data were processed

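The authors sorted live CD45+ cells, sequenced 1 library per condition and deposited raw UMI counts per gene and barcode. Reads were mapped to mm10. The submitters' processing notes name Cell Ranger 5.0.1 and the matrix header names 6.0.1. The deposited counts were read as sparse matrices of 32285 genes with Python 3.11.15, numpy 2.4.6, scipy 1.17.1 and pandas 2.3.3. Barcodes with over 6000 genes or over 25% mitochondrial UMIs were removed, as in the study's methods. Scrublet in scanpy 1.11.5 called doublets in each library at an expected rate of 6% (4.46% of kept cells under lenvatinib, 2.76% under combo, and 5.43% and 4.24% of Gzmk+ CD8 T cells); they stayed in, except in an alternative. The cells and gene lists were chosen with earlier results of these data known.

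UMIs were summed over the cells of a set, which keeps deep cells heavier than shallow ones, and divided by the set's total (CPM). Exact Clopper-Pearson intervals were used for shares, Poisson intervals for sums and conditional binomial intervals for ratios. The ratio and thinning steps were tested on simulated data. With 1 library per condition no test was made. Gated B cells had at least 3 UMIs of Cd79a, Cd79b and Ms4a1 and gated neutrophils at least 2 of Csf3r, both without Cd3d, Cd3e and Cd3g, and neutrophils also without the B cell genes.

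The text names the 10 genes with the largest and smallest ratios between combo and lenvatinib, the 8 either way against each other set, up to 6 with the largest ratios of each list, and the genes of the choice, of the label check and of the CDK4 and CDK6 pathway. Mitochondrial, ribosomal protein and hemoglobin genes and variable segments were left out of the ranking. Genes named beside these (such as Il7r under detection, Klra1, Klra3, Klra6, Klra8, Tox and Prf1) were chosen after their values were seen. The same holds for Trbv3 and the split of cells by it. Libraries whose 3' ends are counted do not allow levels of different genes to be compared. Counts of different genes or lists set side by side here, such as Gzmk and Ccl5, describe captured UMIs only. Some single genes of the lists are not reported here.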

Additional observations from a re-analysis of the deposited data

How the results depend on the processing

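The share of Gzmk+ CD8 T cells was higher under combo in all 12 alternatives, with ratios from 1.60 (cells thinned to 2000 UMIs) to 2.08 (at least 2 Gzmk UMIs), the latter beyond the counting interval of the ratio of 1.64. The cycling share, at a ratio of 0.182, was 0.0860 with cells thinned to 2000 UMIs. Within Gzmk+ CD8 T cells, 135 genes were higher and 776 lower. Taking mitochondrial, ribosomal protein and hemoglobin genes out of the totals gave 268 higher, and setting the median log2 ratio to 0 gave 336 and 292. Limits of 5 and 100 CPM gave 430 and 1488, and 38 and 164, and a fold of 2 gave 65 and 64. Without cells marked by neutrophil RNA and genes of other cells, an alternative added after the data were seen, 48 were higher. Against other sets, genes lower than in Gzmk- Ccl5+ cells went from 69 to 154, and lower than in Gzmk- Ccl5 low cells from 116 to 338, without the same 3 groups of genes in the totals. Against Pdcd1+ Gzmk+ cells, thinning gave 42 higher and 50 lower in place of 27 and 32. Of 2468 alternatives for single genes, 2091 lay within the counting interval of the value given and 377 outside it, with no called direction reversed. No paired analysis was possible because each condition had 1 library, and for the same reason no replicate could be left out. Depth limits sparse genes most: Gzmk itself rested on 1 UMI in 54.2% of the cells under lenvatinib.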
